A study of Mus musculus with 12 samples.

Results

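Cortex of TAU58/2 transgenic mice was compared with cortex of non-transgenic mice at 3 months of age, in 6 of the 12 libraries of the study. The 6 libraries were chosen by their age and genotype labels, and 3 of them carry the TAU58/2 label and 3 the non-transgenic control label. All 6 animals were untreated and of the C57Bl/6 strain, kept with littermates on a pure C57Bl/6J background per the labels, and the study describes the 3 libraries of a group as biological replicates. TAU58/2 mice carry human tau with the P301S change, a cause of inherited frontotemporal dementia, under a Thy1 promoter that is active in neurons. The labels give no sex; Xist was listed at 0 FPKM in all 12 libraries, and the Y-linked gene Ddx3y lay between 1.51 and 2.79 FPKM in the 6 libraries of 3 months. The other 6 libraries, cortex at 10 months with the same genotype labels and 3 animals each, serve below to test whether a difference depends on age.

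Tau is a microtubule-binding protein of axons. Mutant tau loses its hold on microtubules, is phosphorylated at many sites and assembles into filaments inside neurons. In tau transgenic mice, known accompaniments are neurofilament accumulation in axons, loss of synapses, and reactions of astrocytes and microglia, and the gene lists described below follow these themes. The 3-month comparison addresses which transcripts differ with the transgene at the earlier of the 2 ages studied.

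RNA was measured as FPKM, fragments scaled by transcript length and by the library's mapped fragments. Each library added up to 128363 to 147400 FPKM, with 13265 to 13848 of 48526 genes above 0. Across genes, libraries of one genotype were as alike (Pearson r of log2 values 0.678 to 0.711) as libraries of unlike genotype (0.681 to 0.701). The vesicular glutamate transporter Slc17a7, a marker of excitatory neurons, lay between 102 and 233 FPKM in the 3-month libraries. Some other neuron markers were listed at 0 in single libraries, among them Neurod6 in transgenic 1 and Slc32a1 in control 2. Sst was at 0, 0.632 and 302 FPKM in controls and at 492, 0.717 and 1.33 FPKM in transgenics. Markers of neighbouring tissue differed between single libraries: the choroid plexus transcript Ttr stood at 728 FPKM in control 1 and 300 FPKM in transgenic 3, against 5.25 to 25.3 FPKM in the other 4. Pituitary Gh was at 37.4 FPKM and Prl at 10.0 FPKM in transgenic 2, and Prl was listed at 0 in the other 5 libraries. Gh was at 5.09, 0.96 and 7.38 FPKM in controls and was listed at 0 in transgenics 1 and 3.

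The transgene was examined first. The tables list mouse genes, so the mouse tau gene Mapt and Thy1, the gene whose promoter drives the transgene, were read; whether fragments of the transgene were counted under them was not tested. Mapt (chr11:104231390-104332090, plus strand, GRCm38) was at 6.64, 12.0 and 7.46 FPKM in controls 1 to 3 and at 47.6, 47.5 and 43.3 FPKM in transgenics 1 to 3. Each transgenic library was above each control library, and the transgenic mean was 5.30 times the control mean. Mapt missed the threshold of 0.05 after Benjamini-Hochberg adjustment over all genes (log2 fold change 2.44, SE 0.25, limma adjusted p = 0.0550).

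Thy1 (chr9:44043384-44048579, plus strand), a glycoprotein of the neuronal surface, rose in the transgenic libraries. It was at 114, 105 and 140 FPKM in controls and at 441, 417 and 410 FPKM in transgenics, a ratio of means of 3.53. The groups were far apart (log2 fold change 1.83, SE 0.15, limma adjusted p = 0.0267). Thy1 was called in 1 of the 6 fits that left out 1 library, with adjusted p-values from 0.0339 to 0.124. A fit of all 12 libraries gave 0.247, so the call depended on which libraries were fitted. The two-sided exact permutation p was 0.1 for Mapt and 0.1 for Thy1, the smallest that 3 against 3 libraries allow. Both genes therefore followed the genotype labels in all 6 libraries of 3 months. At 10 months they did not: Thy1 was at 115, 314 and 176 FPKM in controls and at 172, 114 and 159 FPKM in transgenics, with overlapping groups, and Mapt overlapped as well. The comparisons with 10 months below rest on labels that these 2 genes do not follow.

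**Figure D1:**
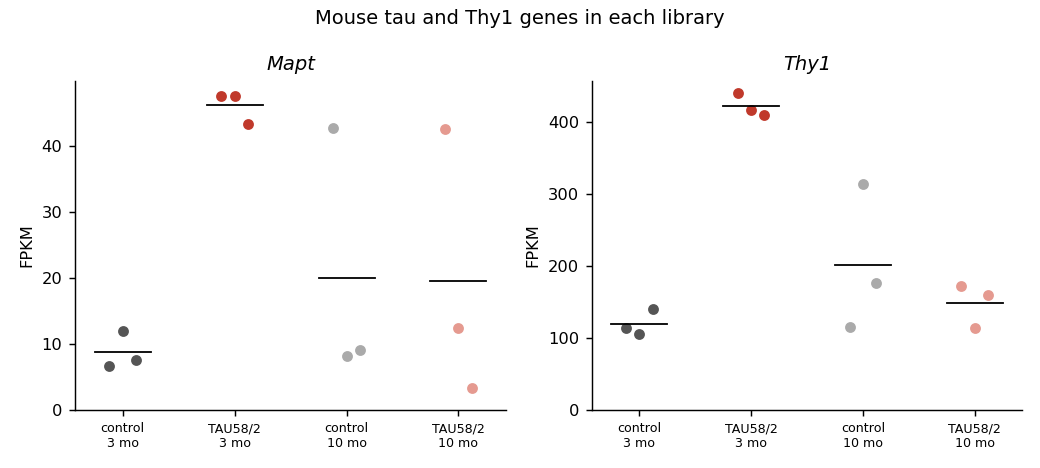
FPKM of Mapt and Thy1 in each library, by genotype label and age, with 1 point per library and a line at the group mean. At 3 months the transgenic libraries lie above all controls for both genes (Mapt 43.3 to 47.6 against 6.64 to 12.0 FPKM, Thy1 410 to 441 against 105 to 140 FPKM).

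Across the transcriptome, 9213 genes averaged 1 FPKM or more in a group and were tested, and 14 of them passed an adjusted p of 0.05 by limma, which is 0.152%. Of these, 6 were higher in transgenic cortex (0.0651%) and 8 were lower (0.0868%), a split that became 6 higher and 5 lower with quantile normalization. The 14 hold 10 protein-coding genes and 4 processed pseudogenes, and the 4 pseudogenes are the ones listed at 0 FPKM in a whole group. Before adjustment, 296 genes (3.21%) had p under 0.05, of which 172 (1.87%) were higher and 124 (1.35%) lower. That share is below 0.05, the share a test at this threshold gives when no gene differs. The median log2 fold change over all genes was 0.02 and the median SE was 0.46. No gene was called when transgenic 2 or transgenic 3 was left out, and 308 and 343 of the 9213 genes then had an unadjusted p under 0.05. Between 4 and 12 genes were called when any other library was left out.

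**Figure D2:**
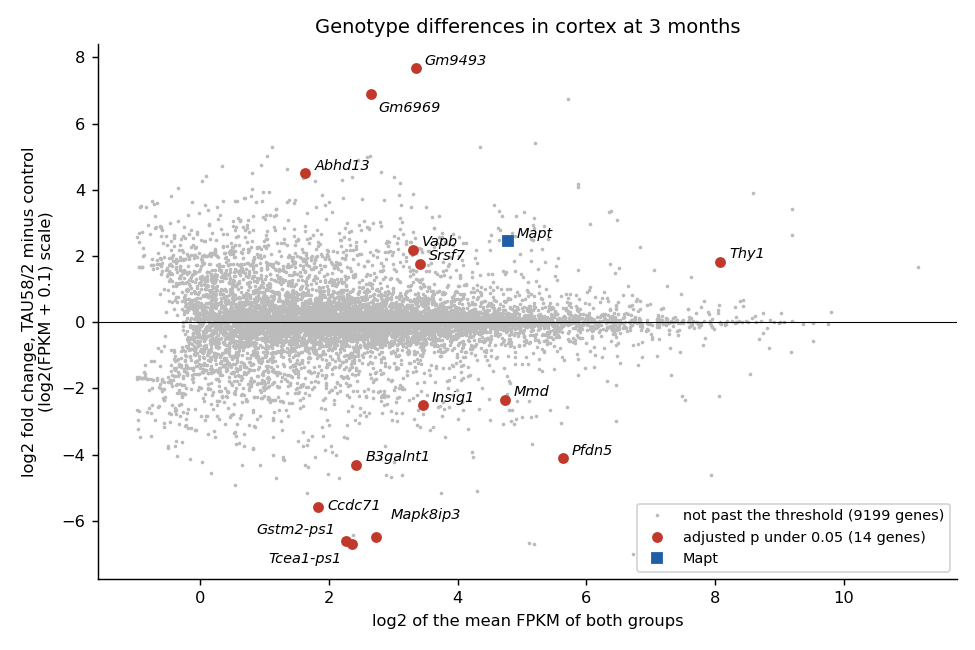
Log2 fold change of each of the 9213 genes tested (TAU58/2 minus control, on the log2(FPKM + 0.1) scale) against the log2 of its mean FPKM. Red points are the 14 genes with an adjusted p under 0.05, and the square is Mapt; the largest changes among the red points are those of pseudogenes listed at 0 in a whole group, whose size is set by the pseudocount.

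The 4 pseudogenes are shown by sequence because each is a near copy of a coding gene, and fragments of the copy and of its coding gene can be hard to separate. A processed pseudogene is an intron-free copy of a messenger RNA placed elsewhere in the genome. Gm9493 resembles Rps7, a ribosomal protein gene, Gm6969 resembles Cox7a2l, a gene of respiratory supercomplex assembly, Tcea1-ps1 resembles Tcea1, a transcription elongation factor, and Gstm2-ps1 was closest to Gstm1, a glutathione transferase. Below, a stretch of 60 bases of each single-exon pseudogene (5′ to 3′ on its own strand, GENCODE annotation of GRCm38) stands above the matching coding stretch. Capitals mark the bases that differ.
Gm9493 (chr19:23619749-23619808, plus strand): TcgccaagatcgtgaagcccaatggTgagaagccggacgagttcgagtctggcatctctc
Rps7: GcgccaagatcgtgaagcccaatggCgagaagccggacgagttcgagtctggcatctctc
Gm6969 (chr12:24638702-24638761, minus strand): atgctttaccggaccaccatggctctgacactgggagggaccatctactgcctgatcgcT
Cox7a2l: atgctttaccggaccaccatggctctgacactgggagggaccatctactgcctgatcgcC
Tcea1-ps1 (chr15:90883209-90883268, plus strand): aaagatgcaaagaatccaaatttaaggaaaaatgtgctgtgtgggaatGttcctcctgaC
Tcea1: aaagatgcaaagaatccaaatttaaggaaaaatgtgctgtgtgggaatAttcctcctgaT
Gstm2-ps1 (chr5:116633467-116633526, minus strand): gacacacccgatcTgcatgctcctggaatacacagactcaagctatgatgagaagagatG
Gstm1: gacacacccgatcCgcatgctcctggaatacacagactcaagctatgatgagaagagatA

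In these stretches the pseudogenes differed from the coding genes at 1 or 2 of 60 positions, and over their aligned length the identity was 98.9% for Gm9493, 97.9% for Gm6969, 99.3% for Tcea1-ps1 and 97.9% for Gstm2-ps1. Of the distinct words of 31 bases in each pseudogene, 83.7% of those in Gm9493, 78.2% in Gm6969, 82.6% in Tcea1-ps1 and 54.1% in Gstm2-ps1 also occur in a transcript of the coding gene. Values of these 4 pseudogenes are therefore uncertain, since the authors' quantification could divide shared fragments between copy and coding gene in either way.

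Gm9493 was listed at 0 FPKM in all 3 controls and was at 23.1, 18.4 and 19.5 FPKM in transgenics 1 to 3 (limma adjusted p = 0.00560). Its coding relative Rps7 was at 137, 130 and 179 FPKM in controls and at 133, 135 and 192 FPKM in transgenics, so the ranges of that gene overlapped. Gm6969 was listed at 0 in the 3 controls and was at 10.1, 19.7 and 8.06 FPKM in transgenics (adjusted p = 0.0267). Both pseudogenes thus had values above 0 in all transgenic libraries and in no control library of this age. Cox7a2l, the relative of Gm6969, overlapped between groups, at 78.0 to 93.8 FPKM in controls and 73.5 to 93.8 FPKM in transgenics.

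The other pair of pseudogenes went the opposite way. Tcea1-ps1 was at 9.80, 11.2 and 9.60 FPKM in controls and was listed at 0 in the 3 transgenics (limma adjusted p = 0.0267). Tcea1 itself was listed at 0 in all 12 libraries. Gstm2-ps1 was at 9.21, 10.3 and 9.37 FPKM in controls and was listed at 0 in the transgenics (adjusted p = 0.0267). Gstm1 was at 119, 131 and 53.3 FPKM in controls and at 121, 100 and 54.4 FPKM in transgenics, and its groups overlapped. Since these files hold no counts and genes that every cell uses are also listed at 0 in single libraries, a value of 0 is given only as listed, and no fold change is given for these 4 pseudogenes. When 1 library was left out, Gm9493 was called in 3 of 6 fits, Tcea1-ps1 and Gstm2-ps1 in 1 each and Gm6969 in none.

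Among protein-coding genes, Abhd13, Vapb and Srsf7 rose in transgenic cortex besides Thy1. Abhd13 (chr8:9977707-9992155, plus strand), of the alpha/beta hydrolase fold family, was at 0.179, 0.194 and 0.137 FPKM in controls and at 5.26, 6.78 and 6.02 FPKM in transgenics. No control exceeded 0.194 FPKM and no transgenic library was under 5.26 FPKM (log2 fold change 4.50, SE 0.41, limma adjusted p = 0.0387). Vapb (chr2:173737511-173784336, plus strand), a membrane protein that tethers the endoplasmic reticulum to other organelles and is mutated in a familial motor neuron disease, was at 3.53, 3.34 and 3.44 FPKM in controls and at 18.1, 18.4 and 12.4 FPKM in transgenics. The controls were nearly equal and the lowest transgenic library was still far above them (log2 fold change 2.19, SE 0.22, adjusted p = 0.0473).

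Srsf7 (chr17:80200080-80207307, minus strand) is a splicing factor of the SR family, a family whose members act on tau exon choice among many other targets. It was at 4.25, 4.93 and 5.21 FPKM in controls and at 16.9, 16.7 and 16.1 FPKM in transgenics. The groups were tight and apart, with a ratio of means of 3.44 (log2 fold change 1.77, SE 0.16, limma adjusted p = 0.0387). None of Abhd13, Vapb and Srsf7 was called in any of the 6 fits that left out 1 library, with adjusted p-values from 0.0638 to 0.252.

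Of the 6 protein-coding genes that fell, Pfdn5 had the smallest adjusted p. Pfdn5 (chr15:102326116-102331873, plus strand) encodes a subunit of prefoldin, the chaperone complex that hands new actin and tubulin chains to the CCT chaperonin. It was at 95.1, 78.2 and 108 FPKM in controls and at 5.04, 4.68 and 6.23 FPKM in transgenics. Every transgenic library was far below every control, the control mean was 17.6 times the transgenic mean, with a log2 difference of -4.11 (SE 0.19, limma adjusted p = 0.00560). Pfdn5 was called in 4 of the 6 fits that left out 1 library, with adjusted p-values from 0.0282 to 0.0646. Exons of Pfdn5 overlap those of Myg1 on the same strand. Of its words of 31 bases, 24.6% occur in other annotated genes, most often in Gm5644 (14.9%), which was at 0.561 FPKM or less. Fragments in shared stretches could be assigned to Pfdn5 or to another gene.

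Mmd (chr11:90249456-90278589, plus strand), a membrane protein named for its rise during macrophage differentiation, was at 43.0, 43.0 and 47.9 FPKM in controls and at 9.26, 8.10 and 8.69 FPKM in transgenics. Its groups were tight and apart, with a control mean 5.14 times the transgenic mean (log2 fold change -2.35, SE 0.14, limma adjusted p = 0.0120). Insig1 (chr5:28071363-28078662, plus strand), which retains the activator of sterol synthesis genes in the endoplasmic reticulum, was at 18.7, 18.3 and 18.7 FPKM in controls and at 2.85, 4.47 and 2.56 FPKM in transgenics. The 3 controls were almost equal and the transgenics were all lower (log2 fold change -2.50, SE 0.25, adjusted p = 0.0473). When 1 library was left out, Mmd was called in 2 of 6 fits (adjusted p 0.0290 to 0.0646) and Insig1 in none (0.0621 to 0.192). Exons of Mmd overlap those of Gm45716 and Gm45883, and 20.1% of its words of 31 bases occur in other annotated genes.

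B3galnt1, Ccdc71 and Mapk8ip3 were close to 0 in every transgenic library. B3galnt1 (chr3:69574158-69598960, minus strand), a glycosyltransferase of globoside synthesis, was at 7.34, 13.9 and 9.69 FPKM in controls and at 0.491, 0.356 and 0.383 FPKM in transgenics (log2 fold change -4.31, SE 0.35, limma adjusted p = 0.0267). Ccdc71 (chr9:108460527-108465938, plus strand), a coiled-coil protein gene, was at 7.43, 7.27 and 6.53 FPKM in controls and at 0.0519, 0.0592 and 0.0414 FPKM in transgenics (log2 fold change -5.57, SE 0.48, adjusted p = 0.0326). Mapk8ip3 (chr17:24892153-24936977, minus strand), known as JIP3, a scaffold of JNK signalling that links cargo to kinesin in axons, was at 7.21, 23.7 and 8.89 FPKM in controls and at 0.0635, 0.0213 and 0.0131 FPKM in transgenics (log2 fold change -6.47, SE 0.62, adjusted p = 0.0424). In all 3 genes the groups were apart, and the spread among the controls was widest for Mapk8ip3. When 1 library was left out, Ccdc71 was called in 1 of 6 fits and B3galnt1 and Mapk8ip3 in none, with adjusted p-values from 0.0366 to 0.192 over these 3 genes. Exons of Mapk8ip3 overlap those of Eme2, Mrps34 and Nme3, and exons of Ccdc71 overlap Klhdc8b on the other strand.

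The same 14 genes in the libraries of 10 months show how far these levels go with the genotype. A 10-month library was placed at the high or low level of a gene by whether it lay above the midpoint, on the log2 scale, between the nearest libraries of the 2 groups at 3 months. For none of the 14 genes did the 10-month libraries divide 3 to 0 by genotype in the direction seen at 3 months. For 10 genes the 10-month libraries held values at both levels, for 1 (Pfdn5) all 6 were high, and for 3 (Gm9493, Tcea1-ps1 and Gstm2-ps1) all 6 were low.

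Vapb was at 39.2, 3.38 and 3.47 FPKM in 10-month controls and at 3.42, 3.23 and 2.74 FPKM in 10-month transgenics, so its single high library at that age was a control. Abhd13 was high in 10-month controls 1 and 3 (7.07 and 7.19 FPKM) and in 10-month transgenic 1 (6.88 FPKM) and was at 0.0476 to 0.177 FPKM in the other 3. Mmd was at 46.6, 8.51 and 41.9 FPKM against 37.1, 9.35 and 6.40 FPKM. For Abhd13 and Mmd, libraries of both genotypes stood at each level at 10 months. So they did for Mapt, at 42.8, 8.13 and 9.08 FPKM in 10-month controls and 42.6, 12.4 and 3.31 FPKM in 10-month transgenics.

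The genotype effect was tested against age over all 12 libraries, and 5 of 9846 genes (0.0508%) passed an adjusted p of 0.05 by limma, with 3.32% under an unadjusted p of 0.05. Pfdn5 was one of them: its genotype effect was higher at 10 than at 3 months by 4.13 on the log2 scale (SE 0.37, adjusted p = 0.00562), with 10-month libraries between 81.9 and 147 FPKM in both genotypes. Gm9493 (difference -7.67, adjusted p = 0.0115), Tcea1-ps1 (6.68, adjusted p = 0.0303) and Gstm2-ps1 (6.60, adjusted p = 0.0303) passed as well, and all 3 were listed at 0 in every 10-month library. Their differences restate the 3-month effect with its sign reversed. They cannot show whether the genotype effect depends on age, since no 10-month value was above 0. For the other 10 called genes the difference between ages did not pass, which does not show that their effects were alike at both ages. The largest of these differences was that of B3galnt1, 6.74 (SE 1.03, adjusted p = 0.113).

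**Figure D3:**
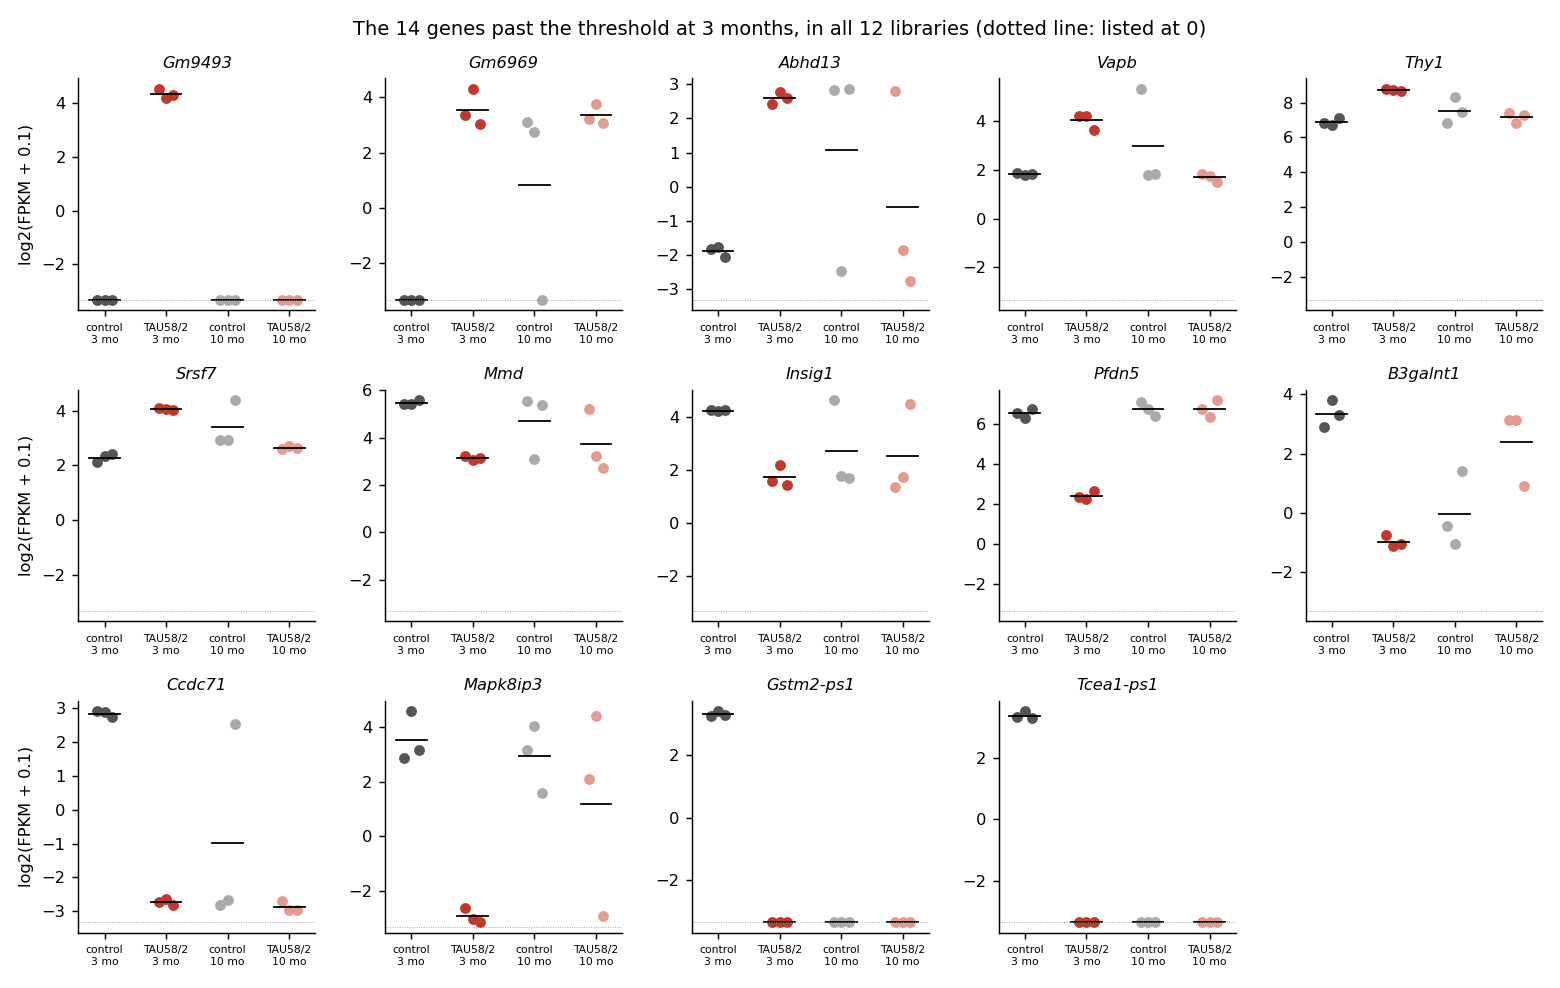
The 14 genes with an adjusted p under 0.05 at 3 months, in all 12 libraries, as log2(FPKM + 0.1), with 1 point per library, a line at each group mean and a dotted line where a library lists the gene at 0 FPKM. At 3 months the groups are apart in every panel; at 10 months 10 of the 14 genes have libraries at both levels, and none divides by genotype as at 3 months.

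Wide spans between libraries were frequent among well measured genes, also within a genotype. Where the median over the 6 libraries reached 5 FPKM (4343 genes), 580 (13.4%) spanned more than 8-fold from the lowest to the highest library. In 529 of these 580 genes a span of more than 8-fold lay within 1 group, in 343 among the controls and in 322 among the transgenics. The groups did not overlap in 55 of the 580 (9.48%), near the 8.24% found among all genes tested (759 of 9213, with 4.58% higher and 3.66% lower in transgenics). Of the 14 called genes, 9 had values that spanned more than 8-fold, and 2 of these were among the 580. Of all 9213 genes tested, 6648 stayed within 8-fold. A large difference between groups itself widens the span, so the 9 are not a separate result.

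Examples are genes that neurons or all cells use. Gapdh, the glycolytic enzyme, was at 8.55, 280 and 4.79 FPKM in controls and at 6.66, 238 and 5.59 FPKM in transgenics, so 1 library of each group was high. Kif5a, a kinesin heavy chain of neurons, was at 525, 461 and 0 FPKM in controls and at 340, 495 and 489 FPKM in transgenics. Tubb4a, a tubulin of neurons and oligodendrocytes, was at 401, 361 and 382 FPKM in controls and at 394, 39.5 and 33.9 FPKM in transgenics. In each of the 3 genes the groups overlapped.

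Each of the 6 libraries held between 101 and 121 values that lay under an eighth of the gene's median, so no library stood apart in this count. Protein-coding genes that spanned more than 8-fold (503) had a median of 3 annotated transcripts and those within 8-fold (3703) a median of 5, and 8.75% against 7.26% had exons that overlap another gene on the same strand. Their median levels were 11.0 and 12.2 FPKM. Among the 6648 genes whose 6 values stayed within an 8-fold range, 6 were called, of which 5 were among the 14.

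Beyond the called genes, 24 protein-coding genes were named for the largest differences among genes with groups apart, all 6 values above 0, a group mean of 5 FPKM or more and an unadjusted p under 0.05, 12 in each direction. None of them passed the adjusted threshold. Those with higher values in transgenics included, besides Mapt, Gng7, Lcmt1, Phyhip, Bdnf, Nacc2, Nsfl1c, Mrps2, Hdgfrp3, Ctnnbip1 and Ncs1. Phyhip, a brain-expressed protein that binds the peroxisomal enzyme phytanoyl-CoA hydroxylase, was at 7.81, 26.8 and 29.7 FPKM in controls and at 165, 157 and 151 FPKM in transgenics (log2 fold change 3.09, SE 0.53, limma adjusted p = 0.307). Nacc2, a transcriptional repressor, was at 1.76, 1.55 and 0.905 FPKM against 9.66, 11.5 and 10.6 FPKM (log2 fold change 2.87, SE 0.30, adjusted p = 0.0550). Both had tight high values in the transgenics, and at 10 months each had at least 1 control library above the midpoint.

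Bdnf, the neurotrophin released with neuronal activity, was at 3.07, 0.197 and 0.241 FPKM in controls and at 5.22, 4.96 and 4.91 FPKM in transgenics (log2 fold change 2.91, SE 0.97, limma adjusted p = 0.955). Lcmt1, the methyltransferase that modifies the catalytic subunit of the tau phosphatase PP2A, was at 0.0893, 5.20 and 0.165 FPKM against 6.24, 6.93 and 6.09 FPKM (log2 fold change 3.34, SE 1.31, adjusted p = 0.955). For both, 1 control library lay near the transgenics, control 1 for Bdnf and control 2 for Lcmt1.

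The 12 with lower values in transgenics were Metrn, Xiap, Paqr4, Cbx5, Lhfpl4, Lzts1, Efnb2, Mon1b, Tm9sf4, Snhg11, Snx6 and Dusp3. Xiap, an inhibitor of caspases, was at 5.94, 5.78 and 6.14 FPKM in controls and at 0.326, 0.279 and 0.732 FPKM in transgenics (log2 fold change -3.56, SE 0.42, limma adjusted p = 0.0918). Paqr4, of the same receptor family as Mmd, was at 22.1, 22.3 and 19.9 FPKM against 3.83, 1.80 and 1.48 FPKM (log2 fold change -3.24, SE 0.37, adjusted p = 0.0904). Snx6, a sorting nexin of the retromer pathway, was at 7.52, 12.2 and 8.497 FPKM against 1.80, 1.65 and 3.08 FPKM (log2 fold change -2.09, SE 0.34, adjusted p = 0.258). Of the 24 genes, 22 had 10-month libraries at both levels. By this rule the exceptions were Efnb2, high in all 6, and Ctnnbip1, below its midpoint of 10.65 FPKM in all 6. That midpoint lies between 3-month control 2 (10.02 FPKM) and transgenic 3 (11.32 FPKM). Ctnnbip1 still spread widely at 10 months, at 1.23, 9.87 and 9.60 FPKM in controls and 0.868, 10.59 and 2.13 FPKM in transgenics. The count of 22 does not show whether the groups were apart at 10 months, and for Lcmt1 and Efnb2 they were, in the same direction as at 3 months. Lcmt1 was then at 0.0950, 0.261 and 0.295 FPKM in controls and at 4.18, 7.45 and 10.1 FPKM in transgenics, with all transgenics higher. Efnb2, a ligand of Eph receptors, was then at 6.11, 5.14 and 6.81 FPKM in controls and at 3.34, 4.93 and 3.85 FPKM in transgenics, with all transgenics lower.

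The pathways and cell types that tau disease is known to touch were described by 38 gene lists with 671 distinct genes, of which 518 were tested. Of these 518 genes, Pfdn5 was the 1 that passed the adjusted threshold, and the groups were apart in 38, against 8.24% of all genes tested. List medians of the log2 fold change are given beside the 0.02 of all genes, and no list was tested as a set.

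No gene of tau or of microtubules passed the threshold. Of 18 tested genes for tau and microtubule-associated proteins, 9 had positive and 9 negative log2 fold changes, with a median of -0.03. The groups were apart in 4 of the 18, against 8.24% of all genes: Mapt and Stmn4 (higher) and Map7d1 and Map6 (lower). Stmn4, a stathmin that binds tubulin dimers, was at 80.7, 88.2 and 64.8 FPKM in controls and 97.5, 95.3 and 90.02 FPKM in transgenics (log2 fold change 0.29, SE 0.16, limma adjusted p = 0.955). Of 18 tubulins and tubulin cofactors, 6 were positive and 12 negative (median -0.10), and the main neuronal beta-tubulin Tubb3 was at 175, 187 and 180 FPKM in controls and at 208, 174 and 161 FPKM, with overlapping groups.

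No other prefoldin subunit passed the threshold. Of 9 prefoldin genes tested, 1 was called lower (0.0868% of all genes), 5 were positive and 4 negative, and the median was 0.10. Pfdn1 was at 37.7, 58.7 and 64.0 FPKM in controls and 59.1, 55.0 and 60.1 FPKM in transgenics, and its groups overlapped. Pfdn6 was at 19.6, 21.6 and 27.0 FPKM against 21.4, 9.54 and 10.1 FPKM, also with overlap (log2 fold change -0.82, SE 0.35, limma adjusted p = 0.955). Of the 8 subunits of CCT, which receives its substrates from prefoldin, 7 were positive with a median of 0.09, and the groups overlapped in all 8. Of 19 cytosolic heat shock chaperones, 9 were positive and 10 negative (median 0.00), with Hspa8 at 390, 439 and 592 FPKM against 392.3, 472 and 189 FPKM.

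Neurofilaments are the intermediate filaments of axons. Nefl, the light subunit, was at 81.2, 79.5 and 95.6 FPKM in controls and at 127, 126 and 118 FPKM in transgenics, a ratio of 1.45. The groups were apart and both were tight, but the difference missed the threshold (log2 fold change 0.54, SE 0.13, limma adjusted p = 0.797). At 10 months Nefl lay between 82.3 and 164 FPKM in controls and between 83.5 and 138 FPKM in transgenics, with overlap. Ina, alpha-internexin, was also apart, at 1.87, 35.7 and 31.3 FPKM against 48.6, 50.02 and 43.5 FPKM, while Nefm and Nefh overlapped. The median over the 7 tested genes of this list was 0.54, and it was -0.13 without control 2.

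Tau kinases and phosphatases were divided evenly, with 16 of 30 tested genes positive and a median of 0.02. The groups were apart, with higher values in transgenics, for the JNK kinase Mapk9 and for Mark1, a kinase of the microtubule-binding repeats of tau, which is 2 of 30 against 4.58% of all genes. Mark1 was at 5.91, 7.39 and 5.86 FPKM in controls and at 8.73, 8.16 and 9.96 FPKM in transgenics (log2 fold change 0.48, SE 0.19, limma adjusted p = 0.955). Gsk3b, a main tau kinase, was at 9.13, 10.7 and 10.7 FPKM in controls and at 5.53, 9.17 and 10.5 FPKM, with overlapping groups.

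Immediate early genes follow recent neuronal activity. Of 17 tested, 12 were positive and the median log2 fold change was 0.58, and the groups were apart in 2 of 17 (Bdnf and Nr4a3) against 4.58% of all genes. Arc was at 47.4, 174 and 197 FPKM in controls and at 232, 226 and 188 FPKM in transgenics, and Fos was at 16.0, 11.4 and 32.0 FPKM against 36.4, 31.9 and 12.4 FPKM. Both overlapped, and control 1 had the lowest Arc value of the 6. The median of this list was positive under 11 other settings, from 0.10 to 0.99, all of which reuse these 6 libraries. The SD of the library medians was 0.745, larger than the median itself. Summed over the list, controls were at 243.5, 740.5 and 694.2 FPKM and transgenics at 843.4, 510.7 and 596.4 FPKM, with overlap. None of the genes of this list passed the adjusted threshold.

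No synaptic gene passed the threshold. The median was -0.03 for 20 genes of vesicle release and 0.05 for 15 postsynaptic genes, with Snap25 at 286, 285 and 294 FPKM in controls and 278, 318 and 257 FPKM in transgenics. Dlg2, a postsynaptic scaffold, was the 1 gene of these 2 lists with groups apart, at 5.21, 11.7 and 8.27 FPKM against 12.1, 13.2 and 14.5 FPKM (log2 fold change 0.73, SE 0.32, limma adjusted p = 0.955).

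Glial markers showed no gene past the threshold. In bulk tissue, fewer cells of a type and less RNA per cell cannot be told apart. Gfap, the intermediate filament that rises in reactive astrocytes, was at 29.6, 19.9 and 25.8 FPKM in controls and at 28.4, 26.5 and 19.8 FPKM in transgenics, with a log2 fold change of -0.01 (SE 0.23). The groups overlapped for Gfap and for 11 other of the 15 astrocyte markers (median 0.01). They were apart in 3 of 15, against 8.24% of all genes: S100b and Fgfr3 had higher and Mlc1 lower values in transgenics. Fgfr3, a growth factor receptor, was at 4.93, 3.41 and 6.92 FPKM in controls and at 7.74, 8.51 and 10.5 FPKM in transgenics (log2 fold change 0.85, SE 0.31, limma adjusted p = 0.955). Of 11 homeostatic microglia genes tested, all overlapped between groups (median 0.03).

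Among 14 genes of disease-associated microglia (median -0.05), the groups were apart for Tyrobp and Axl, with lower values in transgenics, and for Cd68, with higher values. That is 2 of 14 lower against 3.66% of all genes and 1 of 14 higher against 4.58%. Tyrobp, the signalling adaptor of Trem2, was at 14.5, 12.7 and 15.2 FPKM in controls and at 11.0, 10.2 and 9.37 FPKM in transgenics (log2 fold change -0.47, SE 0.16, limma adjusted p = 0.955). Axl, a receptor for dying cells, was at 5.53, 8.14 and 6.02 FPKM against 2.54, 2.74 and 5.04 FPKM (log2 fold change -0.96, SE 0.34, adjusted p = 0.955). Trem2 overlapped, at 2.90, 1.93 and 1.45 FPKM against 1.90, 2.06 and 1.55 FPKM. Cst7, Itgax and Lilrb4a, defining genes of that state, were listed at 0 in all 6 libraries. Myelin genes (17 tested, median 0.01) had overlapping groups throughout.

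Genes of hemoglobin and heme synthesis had groups apart in 5 of 12, all higher in transgenics, against 4.58% of all genes, and 10 of 12 were positive with a median of 0.21. Hba-a1, the alpha-globin chain, was at 9.10, 5.62 and 4.18 FPKM in controls and at 14.9, 60.7 and 22.6 FPKM in transgenics (log2 fold change 2.18, SE 0.58, limma adjusted p = 0.955). Hbb-bs, a beta-globin chain, was at 7.48, 3.96 and 7.36 FPKM against 8.75, 33.4 and 15.6 FPKM (log2 fold change 1.45, SE 0.55, adjusted p = 0.955). Transgenic 2 was the highest library for both globins, and it also had the highest Gh and Prl values of the 3-month libraries. Alas2, the heme synthesis enzyme of red blood cell precursors, was listed at 0 in 5 libraries and was at 0.0303 FPKM in transgenic 2. Globin transcripts can come from blood in the tissue as well as from brain cells, and their source was not tested.

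Alad, which joins 2 molecules of aminolevulinate in the heme pathway, did not share the spread of the globins. It was at 5.50, 6.26 and 6.18 FPKM in controls and at 14.96, 13.4 and 11.4 FPKM in transgenics at 3 months (chr4:62509169-62519918, minus strand). At 10 months it was at 7.78, 7.34 and 7.12 FPKM in controls and at 15.5, 14.3 and 22.2 FPKM in transgenics. The 6 control libraries of both ages were thus below the 6 transgenic libraries, with a ratio of 2.22 at 3 months. After adjustment the 3-month difference missed the threshold (log2 fold change 1.13, SE 0.18, limma adjusted p = 0.241). The difference between the ages was 0.06 (SE 0.29, adjusted p = 0.997).

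The genes beside Alad were read in the same libraries. Hdhd3, the next gene listed on one side, was at 1.98, 2.48 and 2.67 FPKM in controls and at 6.02, 0.377 and 5.23 FPKM in transgenics. Pole3, on the other side, was at 7.21, 7.72 and 9.31 FPKM against 7.78, 6.43 and 8.19 FPKM. Both overlapped between groups.

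**Figure D4:**
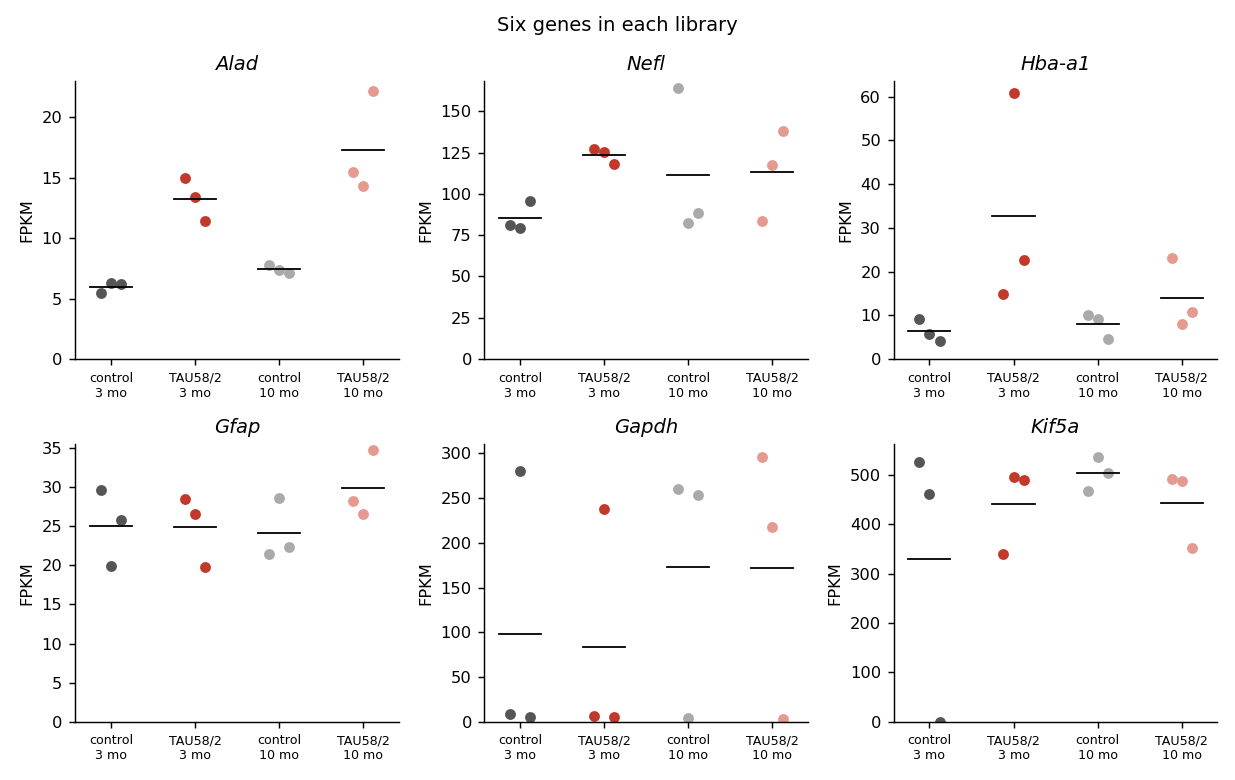
FPKM of 6 genes in each library, by genotype label and age, with 1 point per library and a line at the group mean. Alad is higher in the transgenic libraries of both ages, Nefl and Hba-a1 have groups apart at 3 months and overlap at 10 months, Gfap overlaps at both ages, Gapdh is low in 6 of the 12 libraries, and Kif5a is listed at 0 in 1 library.

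Alad is 1 of 36 genes whose groups were apart in the same direction at both ages, 21 higher and 15 lower in transgenics. These 36 are 4.74% of the 759 genes apart at 3 months and 4.85% of the 743 apart at 10 months. Genes apart in opposite directions numbered 34 (4.48% and 4.58%), so the same direction was about as frequent as the opposite one. Among the 36, Coa3, an assembly factor of cytochrome c oxidase, was at 34.1, 14.7 and 10.3 FPKM in controls and 73.7, 57.5 and 55.5 FPKM in transgenics at 3 months, and at 13.9, 12.1 and 8.77 FPKM against 56.2, 47.6 and 19.2 FPKM at 10 months. Nucb1, a calcium-binding protein of the Golgi, was at 7.54, 11.5 and 6.97 FPKM against 15.6, 12.9 and 13.2 FPKM at 3 months and at 13.1, 10.3 and 8.23 FPKM against 18.2, 13.6 and 13.3 FPKM at 10 months. Both had higher values in transgenics, and Alad, Coa3 and Nucb1 were picked from the 36 after their values were seen.

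Lists of protein turnover and of nuclear genes for energy supply lay close to the median of all genes. The median log2 fold change was 0.05 for 30 proteasome genes, 0.05 for 29 genes of autophagy and lysosome, -0.13 for 19 genes of the unfolded protein response and -0.01 for 36 nuclear genes of oxidative phosphorylation. Genes of the mitochondrial genome (2 tested, median 2.54) varied widely between single libraries. Their summed FPKM were 5577, 6276 and 0 in controls and 3687, 1580 and 156 in transgenics. Atg5, needed to extend the autophagosome membrane, was the 1 gene apart in the autophagy list, at 5.62, 6.61 and 7.24 FPKM in controls and at 2.80, 2.96 and 2.51 FPKM in transgenics (log2 fold change -1.20, SE 0.21, limma adjusted p = 0.312). Of 37 cytosolic ribosomal proteins 25 were negative (median -0.04), and Rpl19 was apart at 155, 94.9 and 135 FPKM against 52.7, 42.7 and 68.6 FPKM (log2 fold change -1.23, SE 0.26, adjusted p = 0.593). At 10 months Atg5 had libraries of both genotypes at either level, and Rpl19 was at its higher level in control 3 and in all 3 transgenics.

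Among lists with at least 3 tested genes, pituitary genes had the highest median (4 tested, 3 positive, 1.05) and meningeal genes the lowest (4 tested, all negative, -0.49). Prl was positive through transgenic 2 alone, and Gh was the 1 negative pituitary gene (log2 fold change -2.26, SE 2.51). Summed pituitary markers were 55.1 to 81.3 FPKM in controls and 64.0 to 127 FPKM in transgenics, most of it Chga, which neurons also express. Summed choroid plexus markers ranged from 38.3 to 791 FPKM in controls and from 36.8 to 355 FPKM in transgenics. Their part in the genotype differences was not tested.

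**Figure D5:**
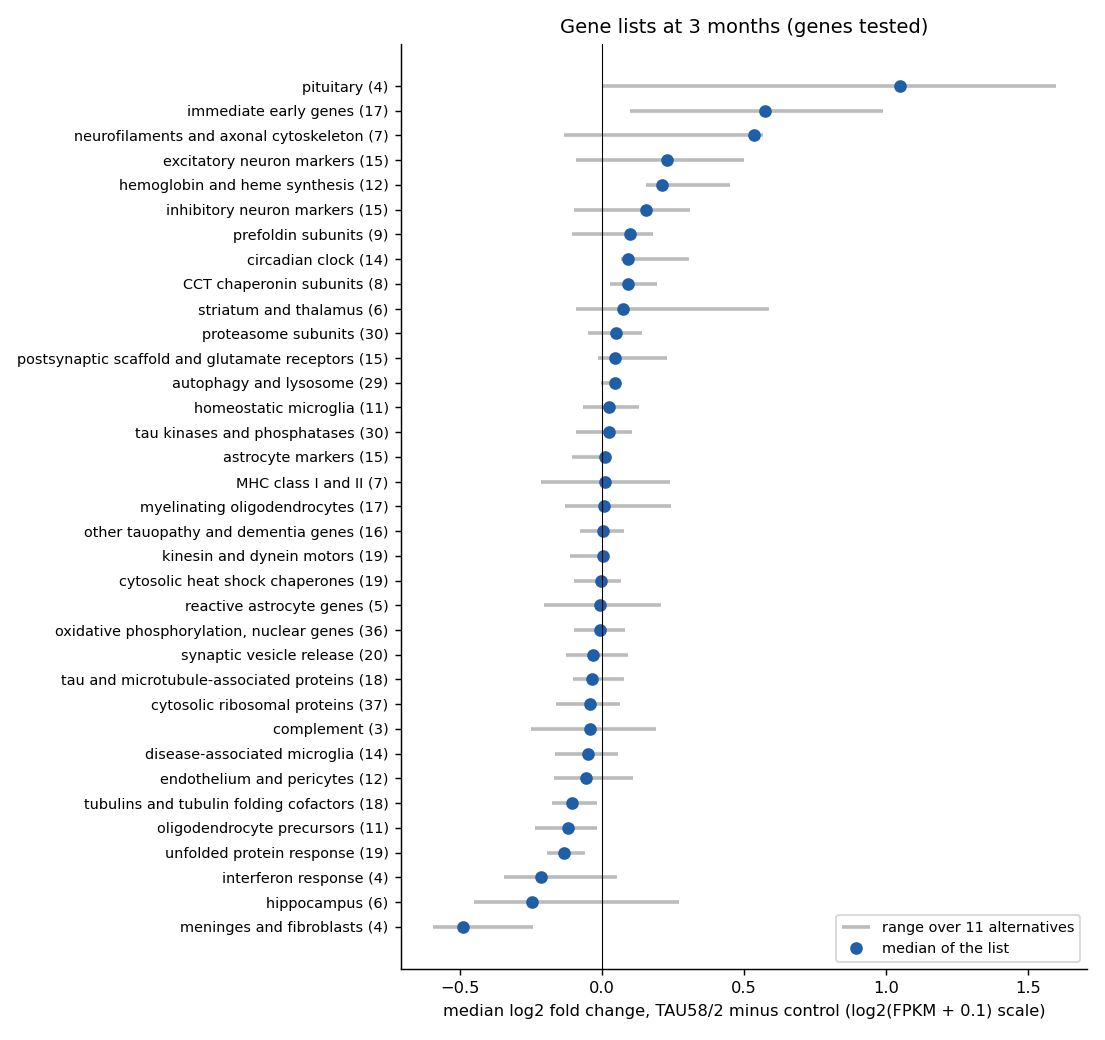
Median log2 fold change (TAU58/2 minus control) of each gene list with at least 3 tested genes, with the number tested in brackets and a grey line from the lowest to the highest median under the other settings, leaving out each library included. The medians run from -0.49 (meninges) to 1.05 (pituitary), and the line of the neurofilament list reaches from its median of 0.54 down to -0.13.

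The authors' deposited table gives a p-value for 19196 genes of this comparison, of which 619 are under 0.05 and 3 have a q-value under 0.05. Those 3 are Gstm2-ps1 (q = 0.0322), Tcea1-ps1 (q = 0.0432) and Dhx8 (q = 0.0432) in the authors' deposited table. Dhx8, an RNA helicase of the spliceosome, was not called here (log2 fold change 5.02, SE 0.64, limma adjusted p = 0.115). All 14 genes called here have a p-value under 0.05 in the authors' deposited table, which rests on the same libraries, and 2 of the 14 have a q-value under 0.05 there. With a mean of 1 FPKM or more and a log2 fold change beyond 0.58 in either direction, the authors' deposited table holds 195 genes with a p-value under 0.05, 112 higher and 83 lower.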

How the data were processed

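Total RNA of mouse cortex was sequenced from strand-specific libraries after ribosomal RNA depletion, per the labels' protocols. Per the submitters' processing notes, tools were HISAT2 (2.0.4), StringTie (1.3.0), SAMtools and R (3.4.2), and builds were mm10 and GRCm38; neither their options nor the annotation is stated there. The authors deposited FPKM for each gene in each library, in a table per age. The authors' deposited table also holds a fold change (a ratio), its log2 value, p-values and q-values, and their test is not stated per the file headers. No counts were used, so absolute depth is unknown. Steps among low values, found for 3.61% to 5.20% of low genes, put the relative depth of the 6 libraries at 1.07 to 1.37 times that of 10-month control 1.

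FPKM were analysed as log2(FPKM + 0.1), a scale that understates changes of low genes. Genes averaging 1 FPKM or more in a group (9213) were fitted over the 6 libraries of 3 months with limma 3.58.1 in R 4.3.3 (a mean per group, eBayes with trend and robust), with Benjamini-Hochberg adjustment and a threshold of 0.05. The difference between ages was fitted over all 12 libraries, on the untested assumption that both tables hold unscaled FPKM. Fold changes are on the log2(FPKM + 0.1) scale, and ratios are of mean FPKM. In simulated data built on these 9213 genes, the test recovered 3 of 50 genes changed by 1 on the log2 scale, 15 of 50 changed by 2 and 66 of 100 changed by 4, with 7 false calls. The simulated noise was normal and independent, with each gene's own spread, unlike the jumps of single libraries described above. These counts therefore do not give the recovery or the false calls in the real data.

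Gene types, coordinates and sequences came from GENCODE (GRCm38), where 382 IDs had no location; 670 of the 671 list genes matched. The lists, the rule for named genes and the tests were chosen with earlier results of these data known. The rule named Mapt and Thy1, genes past the threshold, the 12 protein-coding genes of greatest change each way among those not past it, Mapt included (groups apart, all values above 0, a group mean of 5 FPKM or more, unadjusted p under 0.05, predicted genes passed over), up to 3 members per list with groups apart, and 5 checks of dissection and sex. Other genes were named after their values were seen. Some genes that the rule or the lists cover are not reported here. Alternatives were other pseudocounts (1 and 0.01), other filters, size factors, quantile normalization, a common total, all 12 libraries, the replicate number as a block, plain eBayes, library weights, low values set to missing, a minimum log2 change of 0.58, and leaving out each library.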

Additional observations from a re-analysis of the deposited data

Results flagged for a closer look

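In 5 genes the genotype effect differed between the ages by limma over all 12 libraries, each value being the 10-month minus the 3-month effect on the log2 scale. Pfdn5 differed by 4.13 (adjusted p = 0.00562), lower in transgenics at 3 months and high in all 6 libraries of 10 months. Gm9493 differed by -7.67 (adjusted p = 0.0115), above 0 in the 3 transgenic libraries of 3 months and listed at 0 in the other 9. Tcea1-ps1 differed by 6.68 and Gstm2-ps1 by 6.60 (adjusted p = 0.0303 each), both above 0 in the 3 controls of 3 months and listed at 0 elsewhere. Where a whole group is listed at 0 the size of the difference is set by the pseudocount. For these 3 pseudogenes no 10-month value was above 0, so the difference restates the 3-month effect with its sign reversed. It is no separate test of age.

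Klhl23, a gene of the Kelch-like family, differed by 4.59 (adjusted p = 0.0315) and was not called at 3 months. It was at 4.22, 4.38 and 4.00 FPKM in 3-month controls and at 2.04, 4.16 and 4.23 FPKM in 3-month transgenics, with overlapping groups. At 10 months it was listed at 0 in the 3 controls and was at 1.51, 2.27 and 1.73 FPKM in the transgenics.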

How the results depend on the processing

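The number of genes past the threshold depended on the settings. Against 14 genes (6 higher and 8 lower), there were 4 (1 and 3) with a pseudocount of 0.01, 4 (2 and 2) with a filter at 5 FPKM, 4 (1 and 3) with all 12 libraries, 40 (19 and 21) with eBayes without trend and robust, 8 (2 and 6) with a minimum log2 change of 0.58, 11 (6 and 5) with quantile normalization, and 6 (4 and 2) among genes within an 8-fold range, an alternative added after the data were seen. Leaving out 1 library gave 0 to 12 genes in all, 0 to 6 higher and 0 to 12 lower. Mapt passed with a pseudocount of 1 (log2 fold change 2.32, limma adjusted p = 0.0424), with low values set to missing (2.44, adjusted p = 0.0380) and among genes within an 8-fold range (2.44, adjusted p = 0.0441). Its log2 fold change ranged from 2.27 to 2.69 when 1 library was left out. Of those fits it passed only without control 2 (adjusted p = 0.0481), and the others gave 0.14 to 0.24. Mapt passed under no other setting, all 12 libraries, the replicate number as a block (adjusted p = 0.586) and a minimum log2 change of 0.58 (adjusted p = 0.12) included. Thy1 did not pass with all 12 libraries (1.83, adjusted p = 0.247) or with that minimum of 0.58 (1.83, adjusted p = 0.0706), and ranged from 1.74 to 1.95 when 1 library was left out.

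The replicate number as a block gave 0 genes at 3 months (0 higher, 0 lower), with 242 at an unadjusted p under 0.05 by limma, 0 genes for the difference between ages, and an adjusted p of 0.586 for Thy1 (log2 fold change 1.83). Deviations of libraries with the same number correlated at 0.006, -0.006 and -0.042, and those of libraries with different numbers at -0.031 to 0.038. Whether libraries of the same number share a litter or a batch was not tested.

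The log2 fold change of Ttr (0.014) turned to -0.010 with a pseudocount of 1, to -0.006 with size factors and to between -1.547 and 2.220 when 1 library was left out. With the median divided by 4 as the limit, libraries held 154 to 193 low values. Of 1437 values of 74 named genes under the alternatives, 1283 kept direction and side of the threshold, 134 lost the threshold, 15 gained it and 5, all Ttr, changed sign. Only the 14 called genes could lose the threshold, so all 134 losses fell on them. Most of the 1283 come from genes that were not called, so that count is no measure of how stable the calls were. Of 418 list medians, 15 moved by more than the spread between libraries. The cause of these shifts was not tested.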
